A study of Homo sapiens with 4 samples.

Results

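The genes of the proteasome were followed through 4 RNA-seq libraries of cells labelled HepG2, a human liver tumour line. Members were the protein-coding genes, matched by Entrez identifier to RefSeq symbols, whose symbol starts with PSMA, PSMB, PSMC, PSMD, PSME, PSMF or PSMG followed by a digit, with ADRM1 and POMP added. The rule gave 52 genes, of which 50 had a row in every library, among 17963 genes listed in either pair of tables. No expression values of PSMA8, a testis form of an alpha subunit, or of PSMB11, the thymus-specific beta subunit, were analysed here. Both are counted in the shares of promoter motifs below. PSMC3IP and PSME3IP1 meet the rule by their spelling only, since they are named for a binding partner. The groups held 1 library each: cells transfected with FLAG-JFK, set against cells transfected with vector, and cells given ING5 siRNA, set against cells given control siRNA. JFK is another name of FBXO42, a substrate-binding subunit of a ubiquitin ligase, and ING5 belongs to histone acetyltransferase complexes and reads a methylated histone. The labels name no clone, time or dose. Since every group is a single library, no difference could be checked against replicates and no p-value is given. Intervals beside a fold are exact 95% Clopper-Pearson intervals of a ratio of counts. They hold counting error alone and treat reads as independent, although without molecular identifiers PCR copies cannot be told from separate molecules.

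The proteasome degrades proteins marked with ubiquitin. Its barrel-shaped 20S core is a stack of alpha and beta rings with the proteolytic sites inside the beta rings, and the 19S particle on its end binds ubiquitin, removes it, unfolds the substrate and feeds it in. Cells exposed to interferon can swap the catalytic subunits PSMB5, PSMB6 and PSMB7 for PSMB8, PSMB9 and PSMB10, which gives the immunoproteasome and changes the peptides offered to MHC class I. Most subunit genes are known to share control by the transcription factor NRF1, encoded by NFE2L1, which raises them when proteasome activity runs short.

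Total assigned counts came to 7237325 in the library labelled JFK against 7179365 in vector, and to 9030075 in ING5 siRNA and 9196979 in control siRNA. The targeted genes check the labels. FBXO42 had 115 counts in the library labelled JFK against 116 in vector, which goes against the label of overexpression, so it is named here by its label alone. ING5 had 81 counts in ING5 siRNA against 144 in control siRNA (log2 fold −0.81, interval −1.23 to −0.41). Of 14 hepatocyte markers, 3 had at least 20 counts in each library (RBP4, VTN and HNF4A). CPM are counts scaled to a library of 1000000 assigned reads. The 9 of these markers listed in the vector pair summed to 382 CPM in the library labelled JFK against 317 CPM in vector. The 7 listed in the siRNA pair summed to 72.1 CPM in ING5 siRNA against 55.0 CPM in control siRNA. Most of each sum was VTN alone, with 359, 300, 54.2 and 40.9 CPM in the same order of libraries. ALB, APOA2, TTR and TF had no row in any library. AFP had none in the vector pair, and 0 counts in ING5 siRNA against 1 in control siRNA. APOA1 had at most 2 counts and APOB at most 1 in the vector pair, and SERPINA1 at most 7 in any library, so the cells are named by their label only. The part of this difference in the values below was not tested.

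Proteasome genes were among the well-expressed genes of all 4 libraries. Together the 50 listed members took 0.626% of the assigned reads in the library labelled JFK against 0.638% in vector, and 0.514% in ING5 siRNA against 0.544% in control siRNA. Their counts ran from 197 to 3324 in the library labelled JFK, from 187 to 3115 in vector, from 33 to 2623 in ING5 siRNA and from 35 to 2973 in control siRNA. All 50 passed the minimum mean normalised count of 20 in both pairs. By deposited FPKM or RPKM, which are per length and allow genes to be compared within a library, the median member stood at the 89.3 percentile of all measured genes in the library labelled JFK, 89.8 in vector, 86.8 in ING5 siRNA and 87.8 in control siRNA.

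Levels per length were uneven within the complex. In the vector pair the highest member was the alpha subunit PSMA7, with 233 FPKM in the library labelled JFK against 222 FPKM in vector. The alpha subunit PSMA6 followed, with 199 and 213 FPKM in the same order of libraries. The lowest was PSME4, the nuclear activator PA200, with 11.3 FPKM in the library labelled JFK against 13.0 FPKM in vector. In the siRNA pair PSMA4, another alpha subunit, led with 233 RPKM in ING5 siRNA and 262 RPKM in control siRNA. The constitutive beta subunits had a median of 161 FPKM in the library labelled JFK against 148 FPKM in vector, above the medians of the 19S ATPases (79.4 and 77.7 FPKM) and of the lid (60.6 and 63.7 FPKM). PSMB2, a non-catalytic beta subunit, was the exception among them, with 24.0 FPKM in the library labelled JFK against 25.9 FPKM in vector. The next lowest constitutive beta subunit, PSMB7, had 117 FPKM in both libraries. By counts PSMB2 (838 in the library labelled JFK, 894 in vector) was close to PSMB7 (872 and 862). Its listed gene length is 4759 bases, against 1043 for PSMB7. PSMA5 was at the low end of the alpha ring in the vector pair (66.3 FPKM in the library labelled JFK, 68.4 in vector). Yet it had the highest counts of that ring (1866 and 1898), with a listed length of 3836 bases. The part of listed length in the uneven levels was not tested. PSMB4 was at the high end of the beta ring (188 and 184 FPKM). In the 19S base PSMD2 was highest (152 and 144 FPKM) and PSMD1 lowest (42.4 and 46.4), and PSMC6 was the lowest ATPase (45.3 and 50.6). These scaffold and motor subunits of the 19S particle thus spanned a wide range of levels. The siRNA pair had PSMC1 (124 RPKM in ING5 siRNA, 130 in control siRNA) and PSMC4 (37.6 and 34.9) as the highest and lowest ATPases. Its lid ran from PSMD7 (106 and 109 RPKM) to PSMD6 (30.0 and 30.4), and its activators from PSME2 (85.0 and 75.7) to the inhibitor PSMF1 (19.1 and 20.2). The 19S assembly chaperones PSMD5 and PSMD9 were low in the vector pair, with 20.4 and 21.6 FPKM in the library labelled JFK against 21.8 and 21.1 FPKM in vector. Within a pair the order of the 50 members by level was nearly the same (Spearman rho 0.99 for the vector pair, 0.98 for the siRNA pair). Between vector and control siRNA, whose tables were made separately with other gene lengths, rho was 0.70. These correlations are across genes of the same complex and describe the libraries only.

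**Figure D1:**
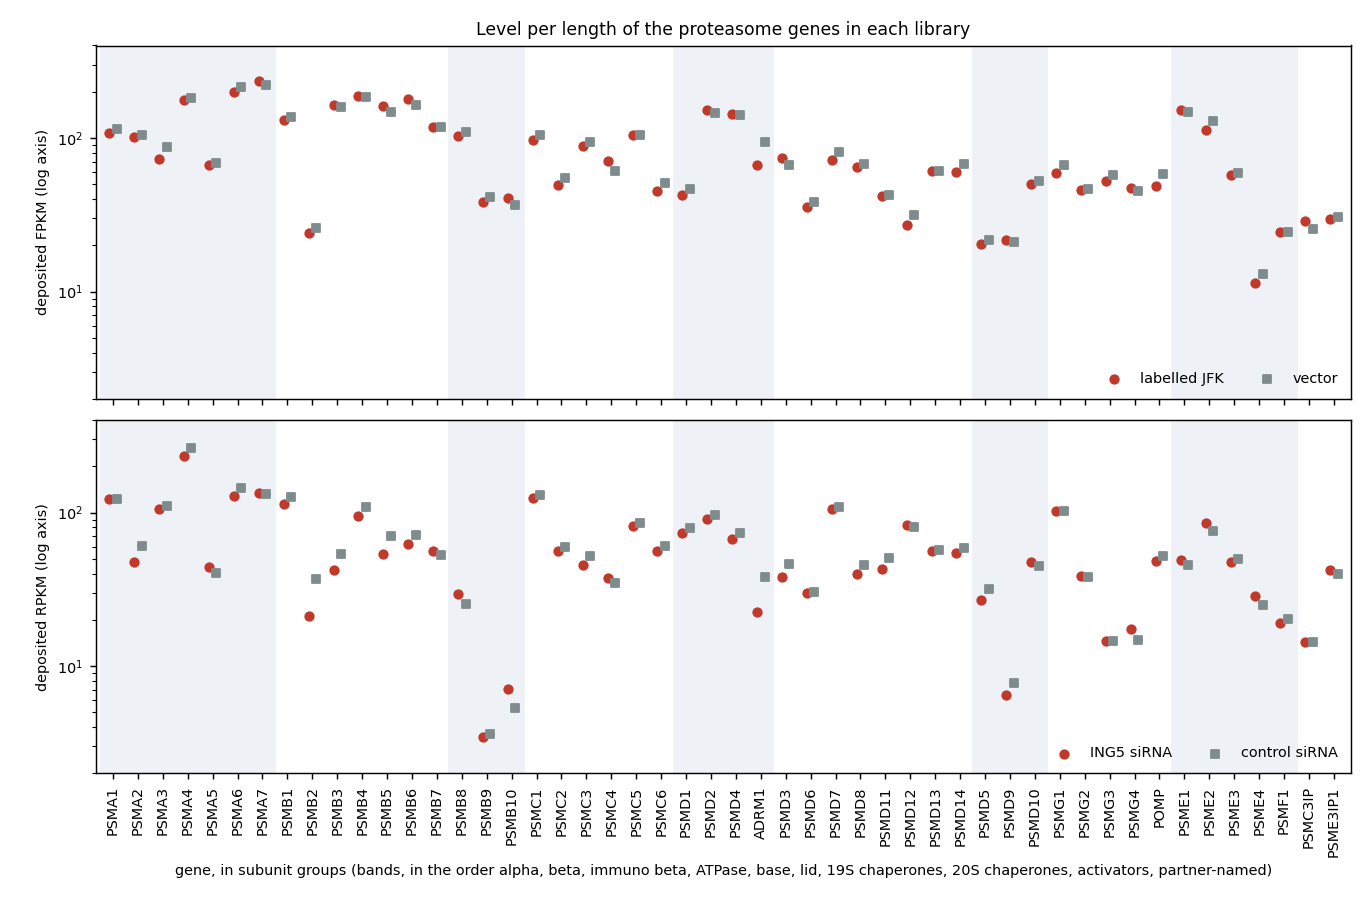
Deposited FPKM (upper panel, vector pair) and RPKM (lower panel, siRNA pair) of the 50 listed proteasome genes on log axes, with 1 point per library and genes in bands by subunit group. PSMB9, PSMB10 and PSMD9 are the lowest genes of the siRNA pair, at 3.46 to 7.71 RPKM. PSMB2 lies below the other constitutive beta subunits in both panels, and has the longest listed length of that ring, 4759 bases.

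ING5 siRNA was set against control siRNA to ask which proteasome transcripts differ with less ING5. The members stood slightly lower in ING5 siRNA as a list, with a median log2 fold of −0.07 against −0.01 over all 11634 genes measured. Of the 50, 34 lay below 0 where 51.4% of all genes did. A counting interval wholly below 0 was found for 17 members, 34% of them, against 20.6% of all genes and 24.2% of genes with a mean of at least 100 counts. An interval wholly above 0 was found for 4 members, against 18.3% of all genes and 20.5% of those with at least 100 counts. The summed counts of the members came to 46400 in ING5 siRNA against 50058 in control siRNA (log2 fold −0.09, interval −0.11 to −0.08). Without ADRM1 and PSMB2, chosen after their values were seen, the summed log2 fold was −0.070.

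Of the 50 members, 2 were at least 1.5-fold lower and none was 1.5-fold higher, against 4.4% and 4.01% of all genes. PSMB2 had 925 counts in ING5 siRNA against 1621 in control siRNA, which is 102 against 176 CPM, a log2 fold of −0.79 (interval −0.91 to −0.68). Its counts were not whole in the vector pair, as arises when reads are divided between genes. How such reads were counted in the siRNA pair is not given. ADRM1, a ubiquitin receptor of the 19S base that also recruits the deubiquitinase UCHL5, had 299 counts in ING5 siRNA against 497 in control siRNA (−0.72, interval −0.93 to −0.51). Both lay well outside the rest of the complex, whose next lowest member was at −0.37. For ADRM1 the count and the deposited RPKM do not match in the ING5 siRNA table: the RPKM implies 290 reads, and by RPKM the log2 fold is −0.76. UCHL5 itself, outside the rule, had 2172 counts in ING5 siRNA against 2049 in control siRNA (0.10, interval 0.01 to 0.19).

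In the 20S core the beta ring stood lower than the alpha ring. Of 7 constitutive beta subunits, 6 had an interval below 0, against 20.6% of all genes and 24.2% of those with a mean of at least 100 counts. The 7 subunits summed to 4707 counts in ING5 siRNA against 6010 in control siRNA (log2 fold −0.34, interval −0.39 to −0.28). The chymotrypsin-like catalytic subunit PSMB5 had 679 counts in ING5 siRNA against 890 in control siRNA (−0.37, interval −0.52 to −0.23). The caspase-like subunit PSMB6 had 502 counts in ING5 siRNA against 587 in control siRNA (−0.21), while the trypsin-like subunit PSMB7 had 533 in ING5 siRNA against 505 in control siRNA (0.09, interval −0.08 to 0.27). Among the non-catalytic subunits PSMB3 had 303 counts in ING5 siRNA against 388 in control siRNA (−0.34, interval −0.56 to −0.12), and PSMB4 and PSMB1 lay at −0.20 and −0.16. The alpha ring, which forms the gate of the core, summed to 9938 counts in ING5 siRNA against 10577 in control siRNA (−0.07, interval −0.11 to −0.03). Of its 7 listed subunits, PSMA2 (635 counts in ING5 siRNA against 811 in control siRNA, −0.34), PSMA6 (−0.18) and PSMA4 (−0.16) had intervals below 0, against 20.6% of all genes. PSMA5 instead had 1550 counts in ING5 siRNA against 1427 in control siRNA (0.14, interval 0.03 to 0.24). The ratio of beta to alpha counts, which does not depend on the scaling, was 0.474 in ING5 siRNA and 0.568 in control siRNA, a log2 difference of −0.26 (interval −0.33 to −0.19). Without PSMB2 that difference was −0.12 (interval −0.20 to −0.05).

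Outside ADRM1 the folds of the 19S particle ran from −0.27 to 0.11. Of the 6 ATPases that unfold substrates, 5 lay below 0, against 51.4% of all genes, while PSMC4 was at 0.11. An interval below 0 was found for 1 of the 6, PSMC3 at −0.18 (interval −0.33 to −0.03), against 20.6% of all genes. The scaffold subunits of the base, PSMD1 and PSMD2, lay at −0.12 and −0.08, and PSMD4, also a ubiquitin receptor, at −0.12 (interval −0.26 to 0.01). The ratio of ADRM1 to PSMD1, PSMD2 and PSMD4 together was 0.0541 in ING5 siRNA and 0.0828 in control siRNA (log2 difference −0.61, interval −0.83 to −0.40). Of the 8 lid subunits, 7 lay below 0, against 51.4% of all genes, and 3 had an interval below 0, against 20.6%. These 3 were PSMD3 (758 counts in ING5 siRNA against 925 in control siRNA, −0.27), PSMD11 (−0.23) and PSMD8 (−0.21). PSMD14, the lid's deubiquitinase, lay at −0.10 (interval −0.24 to 0.04), and PSMD12 at 0.04.

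Assembly chaperones and activators were mixed in direction. The 20S chaperones PSMG1, PSMG2 and PSMG3 lay between 0.00 and 0.03 in size, POMP, which escorts the beta ring, had 653 counts in ING5 siRNA against 709 in control siRNA (−0.10, interval −0.26 to 0.05), and PSMG4, with 149 counts in ING5 siRNA against 128 in control siRNA, lay at 0.23 (interval −0.12 to 0.59). Of the 19S chaperones PSMD5 lay at −0.24 (interval −0.38 to −0.11), PSMD9 at −0.26 (interval −0.59 to 0.08) and PSMD10, also called gankyrin, at 0.08. PSME1 and PSME2 form the interferon-inducible 11S activator. PSME1 had 531 counts in ING5 siRNA against 498 in control siRNA (0.11, interval −0.07 to 0.29), and PSME2 had 642 in ING5 siRNA against 577 in control siRNA (0.17, interval 0.01 to 0.33). PSME4 had 1840 counts in ING5 siRNA against 1634 in control siRNA (0.19, interval 0.09 to 0.28). The nuclear activator PSME3 lay at −0.06, the inhibitor PSMF1 at −0.08, and the partner-named PSMC3IP and PSME3IP1 at 0.00 in size and 0.09.

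The comparison of the library labelled JFK with vector asks which proteasome transcripts differ after FLAG-JFK transfection. The list as a whole lay at the level of all genes, with a median log2 fold of −0.02 against 0.00 over 12107 genes measured. Of the 50 members 27 lay below 0, against 49.5% of all genes, and none was 1.5-fold higher or lower, where 1.5% and 2.07% of all genes were. Intervals wholly above 0 were found for 6 members, against 14.3% of all genes and 17.3% of those with a mean of at least 100 counts. Intervals wholly below 0 were found for 4 members, against 11.2% of all genes and 13% of those with at least 100 counts. This last count was 9 with scaling to total counts and 8 with whole counts only. The summed counts were 45282.5 in the library labelled JFK against 45835.8 in vector (scaled log2 fold 0.01, interval −0.01 to 0.03).

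ADRM1 was again the member that stood apart. It had 702 counts in the library labelled JFK against 949 in vector, which is 97.0 against 132 CPM (log2 fold −0.41, interval −0.55 to −0.27). The ratio of ADRM1 to PSMD1, PSMD2 and PSMD4 together was 0.122 in the library labelled JFK against 0.171 in vector (log2 difference −0.48, interval −0.63 to −0.33). POMP had 518 counts in the library labelled JFK against 617 in vector (−0.23, interval −0.40 to −0.06), and PSMA3 had 527 against 623 in the same libraries (−0.22, interval −0.39 to −0.05). The lid subunit PSMD7 lay at −0.13, with an interval that ends just below 0. PSMD12 (359 counts in the library labelled JFK against 408 in vector, −0.16), PSME4 (591 against 669, −0.15) and PSME2 (657 against 742, −0.15) had intervals that span 0. PSME1, the partner of PSME2, had 1104 counts in the library labelled JFK against 1058 in vector (0.09, interval −0.04 to 0.21).

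On the other side were subunits of several parts of the complex. The ATPase PSMC4 had 980 counts in the library labelled JFK against 841 in vector (0.24, interval 0.11 to 0.38). The lid subunit PSMD3 had 1182 counts in the library labelled JFK against 1040 in vector (0.21, interval 0.09 to 0.33). The catalytic subunits PSMB5, with 1488 counts in the library labelled JFK against 1328 in vector, and PSMB6, with 1111 against 991 in the same libraries, both lay at 0.19 (intervals 0.08 to 0.30 and 0.06 to 0.31). PSMD2 and PSMA7 lay at 0.12 each. PSMB10 and PSMC3IP (304 counts against 271 in vector) lay at 0.19 each with intervals that span 0, as did the lowest ATPase, PSMC6, at −0.11. The third catalytic subunit PSMB7 had 872 counts in the library labelled JFK against 862 in vector (0.04, interval −0.10 to 0.18). The constitutive beta ring summed to 7335.67 expected counts in the library labelled JFK against 7049.29 in vector (0.08, interval 0.03 to 0.13), and the alpha ring to 9192 against 9410 (−0.01, interval −0.05 to 0.03). The beta to alpha ratio was 0.798 in the library labelled JFK against 0.749 in vector (log2 difference 0.09, interval 0.03 to 0.15). In this pair Spearman's rho of log2 fold and gene length was −0.21 over all genes measured and −0.17 over the members. In the siRNA pair it was −0.03 and −0.05. The part of gene length in the folds was not tested. PSMB2, PSMD4, PSMD5, PSMD9 and PSMG3 had counts that were not whole in this pair, as arises when reads are divided between genes, so their folds are less certain.

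**Figure D2:**
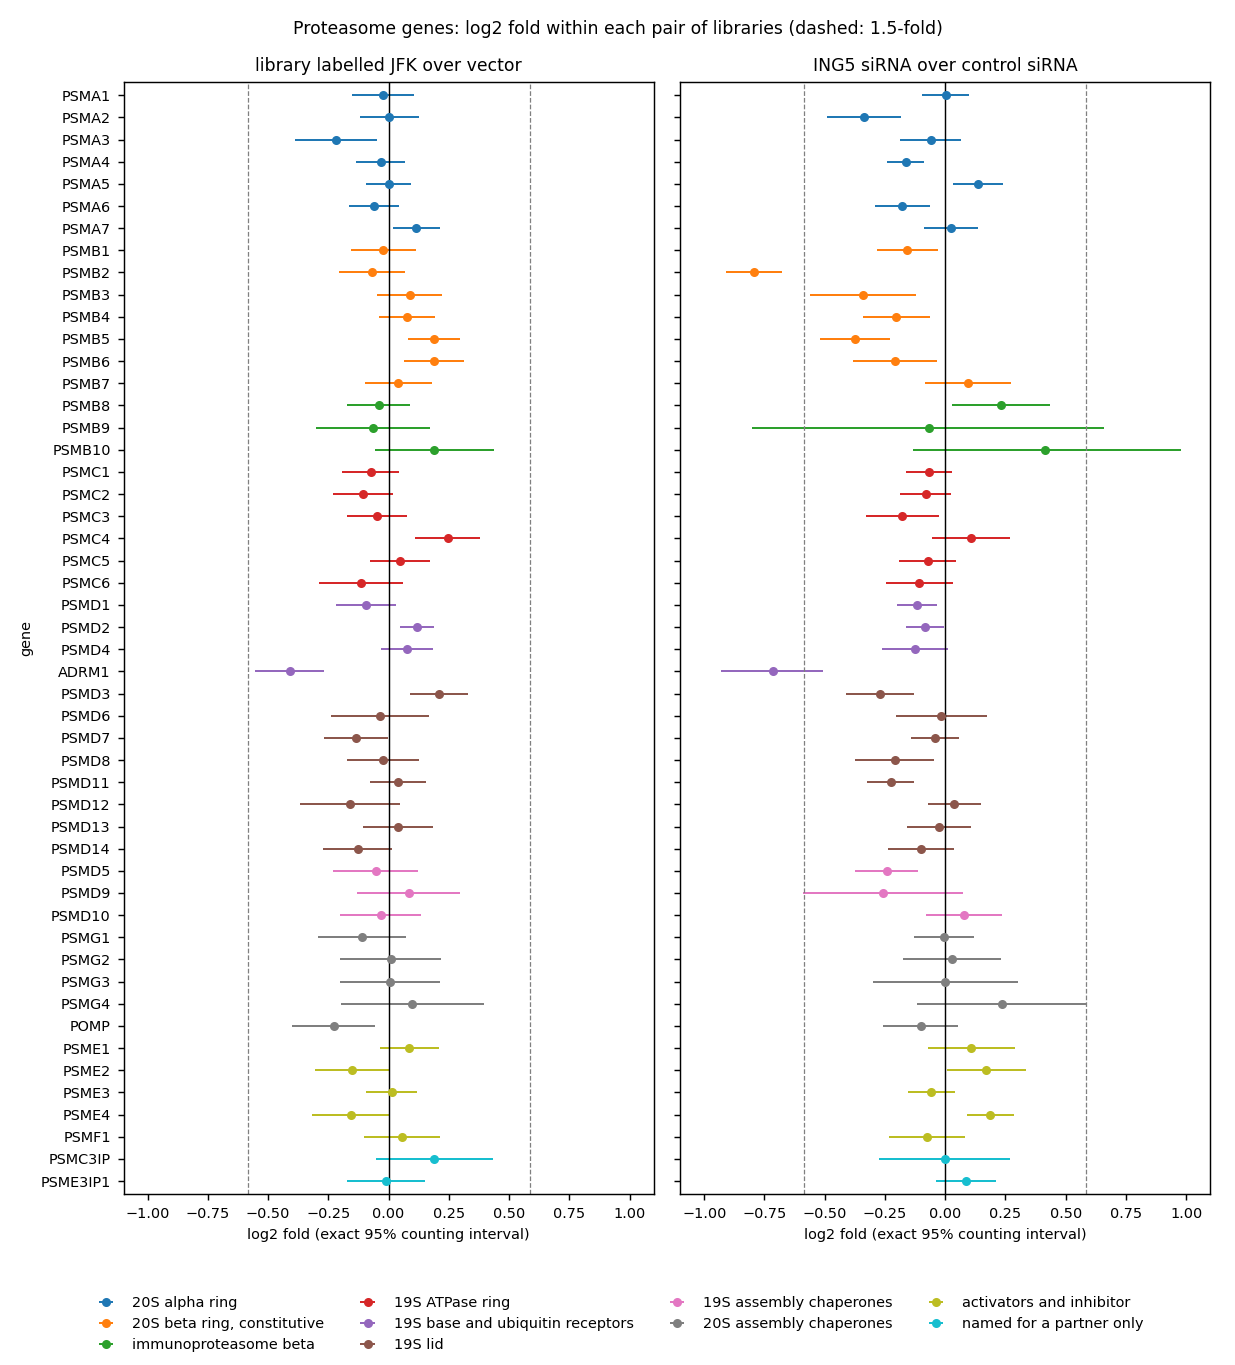
Log2 fold of each listed proteasome gene for the library labelled JFK over vector (left) and ING5 siRNA over control siRNA (right). Points are folds from 1 library per group, lines are exact 95% counting intervals, colours are subunit groups, and dashed lines mark 1.5-fold. PSMB2 and ADRM1 lie past the lower dashed line at right, and ADRM1 is the lowest gene at left.

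The immunoproteasome subunits are given apart. PSMB8 had 129 CPM in the library labelled JFK against 137 in vector, and 48.0 CPM in ING5 siRNA against 40.6 in control siRNA. PSMB9 had 39.8 CPM in the library labelled JFK against 42.6 in vector, and 3.65 CPM in ING5 siRNA against 3.81 in control siRNA. PSMB10 had 40.6 CPM in the library labelled JFK against 36.5 in vector, and 7.31 CPM in ING5 siRNA against 5.44 in control siRNA. All 3 had lower CPM in both siRNA libraries than in the library labelled JFK and vector. The pairs were tabulated separately, so no fold is taken between them. Under ING5 siRNA the log2 folds were 0.41 for PSMB10 (66 counts against 50, interval −0.14 to 0.98) and −0.07 for PSMB9 (33 against 35, interval −0.80 to 0.66). Leukocytes carry the immunoproteasome constitutively, and their defining marker PTPRC had at most 8 counts in any library. Of 8 leukocyte markers, 2 had at least 20 counts in each library of the vector pair (CD68 and LYZ) and 1 in each siRNA library (CD68). Summed levels were 184 CPM in the library labelled JFK against 183 in vector over 7 listed markers. Over 5 they were 50.4 CPM in ING5 siRNA against 61.5 in control siRNA. Most of each sum was CD68 alone, with 172, 165, 48.4 and 59.8 CPM in the same order of libraries. Among the markers at 0 were HLA-DRA in vector and CD74 in ING5 siRNA. Of 5 endothelial markers those listed summed to 164 CPM in the library labelled JFK against 145 in vector. In ING5 siRNA they summed to 12.4 CPM against 26.5 in control siRNA. Most of each sum was CDH5 alone, with 156, 139, 9.63 and 24.4 CPM in the same order of libraries. In the siRNA pair CDH5 had 87 counts against 224 (log2 fold −1.34, interval −1.72 to −0.98). Of 6 fibroblast markers those listed summed to 78.8 CPM in the library labelled JFK against 76.3 in vector. In ING5 siRNA they summed to 94.1 CPM against 96.1 in control siRNA, with single markers mixed in direction. There DCN had 37 counts against 74 (−0.97, interval −1.59 to −0.40) and LUM lay at −0.33 (interval −0.58 to −0.07). COL3A1 had 352 counts against 278 (0.36, interval 0.13 to 0.59). COL1A1 (−0.09) and PDGFRB (0.19) had intervals that span 0. The part of these markers in the levels and folds of the proteasome genes was not tested.

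Each inducible subunit was then read beside the constitutive subunit it replaces, a ratio within a library that no scaling alters. PSMB8 took 38.9% of the PSMB8 and PSMB5 counts in ING5 siRNA (interval 36.1 to 41.9) against 29.5% in control siRNA (27.0 to 32.1). The log2 difference of the ratio was 0.61 (interval 0.35 to 0.86), with PSMB8 at 0.23 (interval 0.03 to 0.43) and PSMB5 at −0.37. In the other pair PSMB8 took 38.6% in the library labelled JFK (36.7 to 40.6) against 42.5% in vector (40.4 to 44.5), a log2 difference of −0.23 (interval −0.40 to −0.06). The PSMB8 share was thus higher in ING5 siRNA and lower in the library labelled JFK than in their own controls, beyond counting error. In the library labelled JFK PSMB8 itself lay at −0.04 (interval −0.17 to 0.09) and PSMB5 at 0.19 (interval 0.08 to 0.30). PSMB9 took 6.17% of the PSMB9 and PSMB6 counts in ING5 siRNA against 5.63% in control siRNA (log2 difference 0.14, interval −0.61 to 0.89), and 20.6% in the library labelled JFK against 23.6% in vector (−0.25, interval −0.52 to 0.02). PSMB10 took 11.0% of the PSMB10 and PSMB7 counts in ING5 siRNA against 9.01% in control siRNA (0.32, interval −0.26 to 0.91), and 25.2% in the library labelled JFK against 23.3% in vector (0.15, interval −0.13 to 0.43). These last 4 differences lie within counting error. An antisense RNA gene, PSMB8-AS1, had 41 counts in ING5 siRNA against 35 in control siRNA, and 509 in the library labelled JFK against 546 in vector. Whether counting used the strand is not stated, so reads of PSMB8 and this gene may not be separable.

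**Figure D3:**
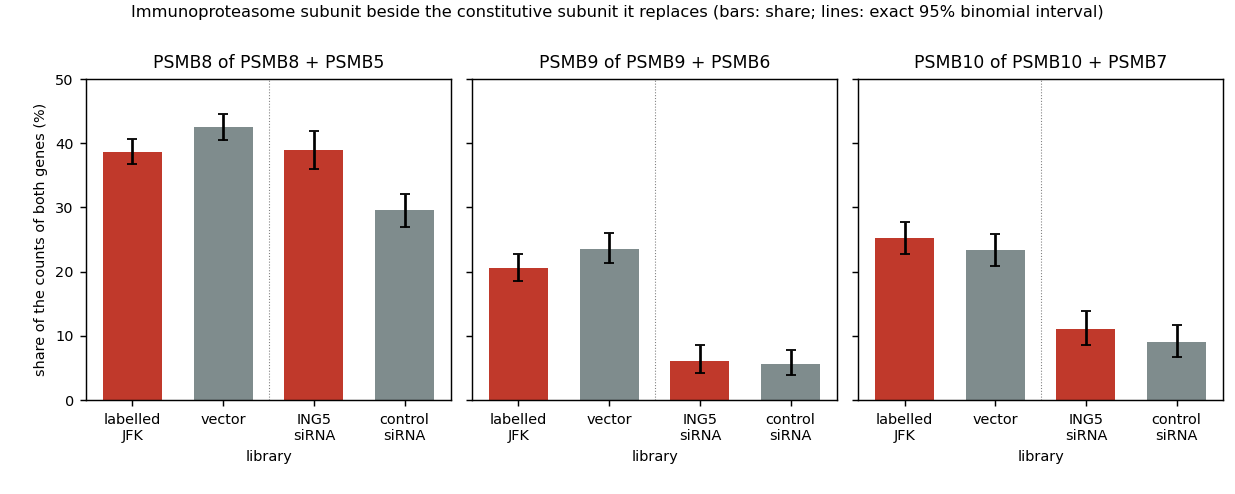
Share of each inducible catalytic subunit in the summed counts of itself and the constitutive subunit it replaces, in percent, for each library; bars start at 0 and lines are exact 95% binomial intervals. The PSMB8 share is 38.9% in ING5 siRNA against 29.5% in control siRNA, and the PSMB9 share is 6.17% in ING5 siRNA and 5.63% in control siRNA.

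The pairs have separate controls and were set side by side over the 50 members. ADRM1 was the only member with an interval below 0 in both, where 3.94% of the 11148 genes measured in both had one, and none had an interval above 0 in both, where 2.84% of those genes had one. Of the 50 members 19 lay below 0 in both, against 25.9% of all genes, and 8 above 0 in both, against 23.9%. A further 15 lay above 0 in the library labelled JFK and below 0 under ING5 siRNA, against 26.5% of all genes, and 8 the other way, against 23.8%. Pearson's r of the folds was 0.20 and Spearman's rho 0.01 over the 50 members, and r was −0.0023 without ADRM1, against 0.06 over all genes measured in both. PSMB5, PSMB6, PSMD2 and PSMD3 had intervals on opposite sides of 0 in the pairs: above 0 in the library labelled JFK and below 0 under ING5 siRNA. These are 4 of 50 members, against 3.62% of all genes. The difference between the pairs was not tested, and all points of an axis share the same pair of libraries.

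**Figure D4:**
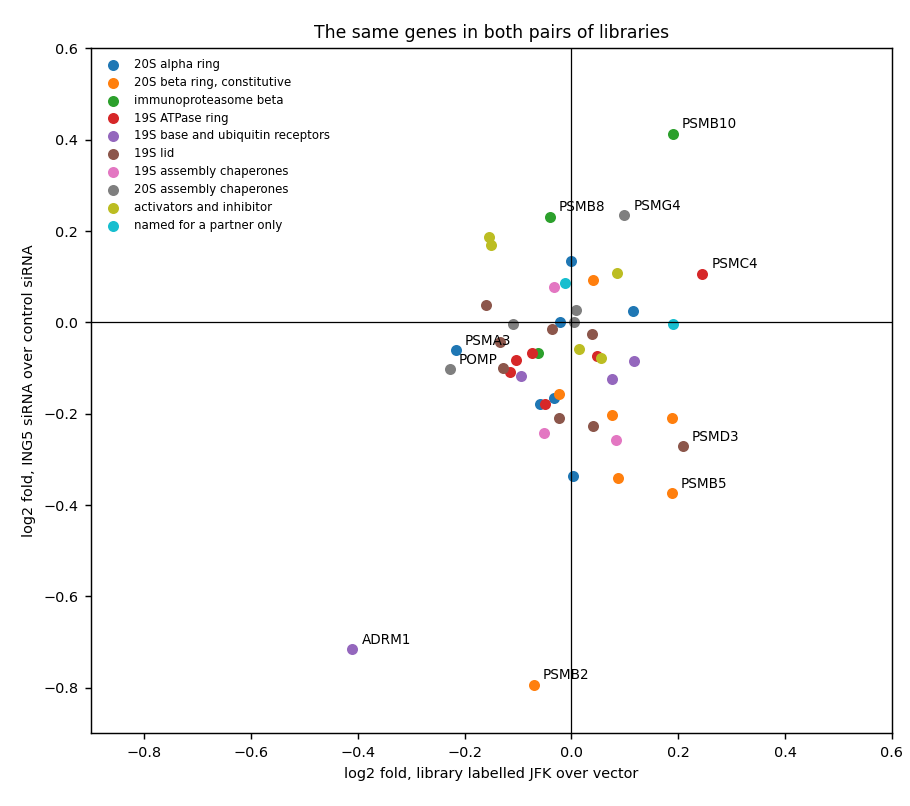
Log2 fold of each listed proteasome gene in the library labelled JFK over vector (x axis) and in ING5 siRNA over control siRNA (y axis), coloured by subunit group. ADRM1 lies at −0.41 and −0.72, apart from the other genes in both directions, and PSMB2 lies low on the y axis only.

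Promoter sequence is shown for the members that stood apart in the siRNA pair, ADRM1 and PSMB2, and for PSMB8 and PSMB9 as the inducible subunits with the highest and lowest levels there. Windows of 300 bases, 250 before to 50 after a transcription start, were taken from RefSeq on GRCh38.p14, which is a later build than the one named for the deposited tables, and are printed 5′ to 3′ on the strand of the gene. Capitals mark matches on either strand to any of 4 motifs: TGACNNNGC, the core of the antioxidant response element that NRF1 binds; CCAAT, the box bound by NF-Y; the core of the interferon-stimulated response element, GAAA and GAAA with any 2 bases between; and TTCNNNGAA, the gamma-activated site of interferon-gamma signalling. No match in these windows overlaps another.
ADRM1, chr20:62302646-62302945, plus strand: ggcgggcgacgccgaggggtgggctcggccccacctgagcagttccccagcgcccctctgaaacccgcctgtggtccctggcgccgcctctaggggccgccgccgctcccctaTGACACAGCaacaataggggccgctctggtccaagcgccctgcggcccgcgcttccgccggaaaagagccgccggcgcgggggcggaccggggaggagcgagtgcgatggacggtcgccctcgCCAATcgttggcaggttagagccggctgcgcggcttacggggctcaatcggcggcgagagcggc
PSMB2, chr1:35641477-35641776, minus strand: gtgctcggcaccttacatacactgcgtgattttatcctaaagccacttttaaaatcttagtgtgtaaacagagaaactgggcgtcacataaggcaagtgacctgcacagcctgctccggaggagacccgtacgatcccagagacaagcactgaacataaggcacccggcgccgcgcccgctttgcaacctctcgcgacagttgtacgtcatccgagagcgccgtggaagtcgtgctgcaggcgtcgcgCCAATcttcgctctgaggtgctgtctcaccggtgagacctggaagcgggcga
PSMB8, chr6:32843998-32844297, minus strand: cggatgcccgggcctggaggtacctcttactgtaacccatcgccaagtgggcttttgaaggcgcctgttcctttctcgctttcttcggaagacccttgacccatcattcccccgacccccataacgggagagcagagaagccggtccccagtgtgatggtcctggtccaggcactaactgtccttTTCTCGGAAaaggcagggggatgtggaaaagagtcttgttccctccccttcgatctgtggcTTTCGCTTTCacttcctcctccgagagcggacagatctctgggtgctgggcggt
PSMB9, chr6:32853942-32854241, plus strand: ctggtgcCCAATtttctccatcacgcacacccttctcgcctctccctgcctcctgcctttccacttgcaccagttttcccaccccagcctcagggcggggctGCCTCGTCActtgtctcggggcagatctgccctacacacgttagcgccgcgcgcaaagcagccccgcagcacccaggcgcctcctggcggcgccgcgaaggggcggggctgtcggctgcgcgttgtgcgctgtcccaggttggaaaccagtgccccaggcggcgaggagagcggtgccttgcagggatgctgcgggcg

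The ADRM1 window holds an antioxidant response element core that starts at base 114 and a CCAAT at base 237. The PSMB2 window holds a CCAAT at base 249, across the transcription start, and none of the other motifs. The PSMB8 window, from the downstream of its listed starts, holds a gamma-activated site at base 186 and an interferon-stimulated core, read on the opposite strand, at base 247. The other PSMB8 window, at chr6:32844630-32844929, holds none of the 4 motifs. The PSMB9 window holds a CCAAT at base 8 and, on the opposite strand, an antioxidant response element core at base 103. Promoter windows were found for 46 of the 52 members, PSMA8 and PSMB11 among them, some with more than 1 start. The antioxidant response element core was in 34.8% of these 46 genes against 17.9% of 15843 protein-coding genes, CCAAT in 50% against 42.1%, the interferon-stimulated core in 15.2% against 4.16% and the gamma-activated site in 17.4% against 8.98%. The interferon-stimulated core was found for PSMA4, PSMB4, PSMB8, PSMB10, PSME1, PSME2 and PSMG4. These 7 genes had a median log2 fold of 0.17 under ING5 siRNA, with PSMB4 lowest at −0.20 and PSMB10 highest at 0.41, against −0.08 for the other 37 members with a window and a value. In the library labelled JFK the same medians were 0.08 and −0.03. The 16 members with an antioxidant response element core had a median of −0.07 under ING5 siRNA, as did the 28 without, and −0.04 and −0.02 in the library labelled JFK. The 7 measured members with a gamma-activated site had a median of −0.08 under ING5 siRNA against −0.07 for the other 37, and of 0.12 in the library labelled JFK against −0.04. The 22 with CCAAT had a median of −0.08 under ING5 siRNA against −0.05 for the 22 without, and of −0.03 in the library labelled JFK against −0.01. A match is a description of the letters and shows no binding. The motifs were chosen with earlier results of these data known, and the relation of matches to folds was not tested.

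Genes that control or work with the proteasome were read from lists outside the rule. Of 8 genes around NRF1, NFE2L1 itself had 1959 counts in ING5 siRNA against 1969 in control siRNA (0.01, interval −0.08 to 0.10), and 1552 in the library labelled JFK against 1368 in vector (0.21, interval 0.10 to 0.31). The small MAF gene MAFK, a dimer partner, lay at 0.71 (interval 0.51 to 0.93) and the protease gene DDI2, which releases NRF1, at 0.69 (61 counts against 38, interval 0.09 to 1.32) under ING5 siRNA, the 2 of 8 that were 1.5-fold higher there, against 4.01% of all genes, and NFE2L2 and NFE2L3 were lowest at −0.24 and −0.17. In the library labelled JFK 3 of the 8 had an interval above 0, against 14.3% of all genes: MAFK (0.20) and MAFG (0.18) besides NFE2L1. There DDI2 was lowest at −0.32 (interval −0.89 to 0.25). Medians of this list were 0.06 in each pair. Of 17 associated and shuttle genes, none was 1.5-fold apart in either pair, and the medians were −0.02 under ING5 siRNA and −0.01 in the library labelled JFK. Among them the proteasome-bound ligase UBE3C had 2175 counts in ING5 siRNA against 1668 in control siRNA (0.40, interval 0.31 to 0.49). AKIRIN2, which imports proteasomes into the nucleus, lay at 0.30 and ZFAND2A at −0.35. There, 3 of the 17 had an interval above 0 and 3 below 0, a share near that of all genes (18.3% and 20.6%). In the library labelled JFK 1 lay above and 1 below, where 14.3% and 11.2% of all genes did. In the library labelled JFK the highest of this list was PAAF1, an assembly factor of the 19S base, with 240 counts against 186 in vector (0.39, interval 0.11 to 0.68), and the lowest were UBLCP1 and ZFAND5 at −0.19 each. Of 12 genes for ubiquitin, its activating enzymes and the VCP segregase, none was 1.5-fold apart in either pair. UBA6, an activating enzyme, was the highest under ING5 siRNA (0.20), where VCP was lowest (−0.20), and the lowest in the library labelled JFK (−0.29, interval −0.50 to −0.08), where BAG6, a chaperone that delivers clients to the proteasome, was the highest (0.24).

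Of 9 interferon regulators and antigen-processing partners of the immunoproteasome, 5 had an interval above 0 under ING5 siRNA and none below, against 18.3% and 20.6% of all genes, with a median log2 fold of 0.22. The peptide-trimming enzyme ERAP1 had 235 counts in ING5 siRNA against 166 in control siRNA (0.52, interval 0.22 to 0.81), NLRC5, an activator of MHC class I genes, lay at 0.40, and the transporter genes TAP1 and TAP2 at 0.25 each. The lowest there were IRF1 at −0.12 (interval −0.53 to 0.28) and STAT2 at −0.10 (interval −0.34 to 0.14). In the library labelled JFK the median of this list was −0.16, and 4 of the 9 had an interval below 0 and none above, against 11.2% and 14.3% of all genes. Among these STAT2 lay at −0.46 (interval −0.70 to −0.22) and IRF9, with 363 counts in the library labelled JFK against 486 in vector, at −0.40 (interval −0.60 to −0.20). The highest were ERAP1 and TAP1, at 0.06 and 0.03. PSMB8, PSMB9 and PSMB10 lay at −0.04, −0.06 and 0.19 in that library, all with intervals that span 0.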

How the data were processed

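RNA-seq covered 4 libraries, 1 per group. The Expression columns of the JFK and vector tables are deposited expected counts (69.0% and 68.6% of genes had whole values), and those of the siRNA tables are deposited counts, all whole, per the file headers and values. FPKM and RPKM are the authors' values per length and depth, per the file headers. The submitters' processing notes name the tools STAR, fastp, FastQC and DESeq2 and the builds hg19 and GRCh37, without versions, and the counter is not given in sources used here.

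Rows listed more than once (2 genes, siRNA pair) or blank (1 gene, vector pair) were left out. Identifiers matched a RefSeq table for 16899 of 17009 and 16767 of 16856 genes. Counts were scaled by TMM (trims 0.3 and 0.05) within each pair, 0.5 was added and the log2 ratio taken; genes averaging 20 or more normalised counts in a pair were called measured. Expected counts were rounded for the intervals only. Shares have exact binomial (Clopper-Pearson) intervals, and differences of a ratio within a library have exact conditional intervals of the odds ratio. A count and RPKM were taken to disagree beyond 0.001 counts, and a count and FPKM beyond 20%. Percentiles rank FPKM or RPKM over measured genes. Python 3.11.15, numpy 2.4.6, pandas 2.3.3, scipy 1.17.1 and matplotlib 3.10.9 were used, and the code was tested on simulated data. The members, lists, motifs and 1.5-fold threshold were chosen with earlier results of these data known. Genes were named by rule: the catalytic and inducible subunits, POMP, PSME1, PSME2, the 6 highest and 6 lowest folds of each pair, the extremes of each subunit group in fold or level, and the extremes of the lists outside the rule. Some genes of those lists and of the marker lists are counted in them but not reported here by name. Values rest on single libraries, so spread between cultures is unknown. Alternatives were other scalings, units, filters and pseudocounts, and leaving out genes.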

Additional observations from a re-analysis of the deposited data

How the results depend on the processing

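No paired analysis was possible because each group holds 1 library and the result comes from no test; for the same reason no library could be left out. All 938 folds of single members under the alternatives stayed within the counting interval of the main value; 8 members (vector pair) and 5 (siRNA pair) changed sign under some alternative, all with an interval that spans 0. The median of the members ran from −0.06 to −0.01 (vector pair) and from −0.09 to −0.05 (siRNA pair), and that of the inducible subunits from −0.10 to −0.04 and from 0.21 to 0.25. For the vector pair the summed fold was −0.029 with total counts, −0.034 by FPKM and −0.019 with whole counts only, against 0.01, and members with an interval below 0 were 9 with total counts and 8 with whole counts only, against 4. In the siRNA pair members with an interval below 0 numbered 15 to 18. There, members 1.5-fold lower were 1 without genes whose count and RPKM disagree, which leaves out ADRM1, and 0 without ADRM1 and PSMB2, where the summed fold was −0.070; that alternative and those for counts of intervals were chosen after seeing the data. Over all genes, 1.5-fold higher and lower in the vector pair were 181 and 251, against 1571 and 1846 with no filter, 22 and 60 where genes average 100 or more counts, and 91 and 108 with whole counts only. In the siRNA pair they were 466 and 512, against 2263 and 2113 with no filter and 168 and 293 where genes average 100 or more. The whole-count alternative was not run for the siRNA pair, whose counts are all whole. Depth limits PSMB9 and PSMB10 in the siRNA pair, with 33 to 66 counts.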
